A study of Homo sapiens with 40 samples.

Results

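The RNA of 9 genes of steroid receptor signaling and luminal identity was followed in the breast cancer cell lines BT474 and BT474R. The genes are the steroid receptors ESR1, PGR and NR3C1, the estrogen-regulated genes GREB1, TFF1 and TFF3, and the transcription factors FOXA1, GATA3 and XBP1. They were taken by name from a table of read counts with 44584 genes, and all 9 were present and passed the filter on low counts. BT474 is a HER2-overexpressing ductal carcinoma line that is sensitive to trastuzumab, an antibody against HER2. BT474R is a resistant line that derives from 1 clone of BT474 grown with 10 µg/mL trastuzumab, so that a difference between the lines cannot be told apart from a difference of that clone. Cells of all groups were starved for 14 to 16 h in phenol red-free medium with 0.1% serum and then sampled (T0), or given 50 ng/mL EGF, 10 ng/mL heregulin (HRG) or water as vehicle for 1 h, 12 h or 24 h. These 10 groups per line had 2 libraries each, which made 40 libraries in 20 groups.

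ESR1 encodes the estrogen receptor alpha and PGR the progesterone receptor, both of which are transcription factors that a steroid hormone switches on. In luminal breast cells FOXA1 opens chromatin for the estrogen receptor, and GATA3 acts with both at many of the same enhancers and is needed for luminal differentiation. PGR, GREB1 and TFF1 are classical genes of the estrogen response, XBP1 is a factor of the unfolded protein response that estrogen also raises in breast cells, and NR3C1 encodes the glucocorticoid receptor. EGF binds the EGF receptor (HER1) and HRG binds HER3 and HER4, and each of these receptors can pair with HER2. The comparisons asked which of the 9 genes differed between the lines at baseline, and which were lost or gained after each ligand.

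Libraries held between 16794594 and 33387936 counts, and levels are given in counts per 1000000 counts (CPM) after scaling by TMM over all 40 libraries. The markers of luminal epithelium KRT8, KRT18, KRT19, EPCAM, CDH1, CLDN3, CLDN4 and ERBB2 averaged at least 1 CPM in both lines (8 of 8), with sums of 11700 to 15400 CPM per library in BT474 and 11100 to 17600 CPM in BT474R. Of 7 basal and myoepithelial markers 3 averaged at least 1 CPM in each line, with sums of 5.46 to 27.3 CPM in BT474 and 4.26 to 11.1 CPM in BT474R, and KRT14 and ACTA2 averaged below the detection limit of 3 counts, with at most 0.28 and 0.226 CPM in a library. Of 7 stromal, endothelial and immune markers COL1A1 and CD68 alone averaged at least 1 CPM, with list sums of 77.8 to 107 CPM and 171 to 300 CPM, while PTPRC, PECAM1, LUM and CD3E averaged below the limit, with at most 0.218 CPM in a library (PECAM1). In such bulk samples, fewer cells of a kind and less RNA per cell cannot be told apart. Replicates are known only by number, so p-values measure the spread between these libraries, which may be technical. The HRG-BT474R libraries at 24 h differed most from each other over all genes, with a median chi-square of 2.56 against 0.595 to 2.56 over the 20 groups. Counting noise alone would give 0.455, and the next highest group was BT474R vehicle at 24 h with 1.58.

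In the GENCODE annotation (GRCh38), ESR1 lies on chromosome 6 (151656691 to 152129619, plus strand), PGR on chromosome 11 (101029624 to 101129813, minus strand) and NR3C1 on chromosome 5 (143277931 to 143435512, minus strand). GREB1 lies on chromosome 2 (11482341 to 11642788, plus strand), and TFF1 (42362282 to 42366535) and TFF3 (42311667 to 42315409) lie close together on the minus strand of chromosome 21. FOXA1 lies on chromosome 14 (37589552 to 37596059, minus strand), GATA3 on chromosome 10 (8045378 to 8075198, plus strand) and XBP1 on chromosome 22 (28794555 to 28800597, minus strand). The antisense gene GATA3-AS1 overlaps GATA3 over 3035 bases and PGR-AS1 overlaps PGR over 737 bases, and the strand setting of the counting is not given in the sources used here, so reads of such a pair cannot be told apart. GATA3-AS1 had at most 40 counts in a library against at least 258 for GATA3, and PGR-AS1 had at most 76 against at least 340 for PGR.

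The 250 bases before the annotated start are shown for the 2 members with the widest loss in BT474R, PGR and GATA3, and for XBP1, which was higher in BT474R. They were taken from RefSeq (GRCh38.p14), where 6 of the 9 members had an entry (not GREB1, TFF1 and TFF3), and run 5′ to 3′ on the gene's strand. Capitals mark GGTCA, the core of an estrogen response element, in GATA3, and the endoplasmic reticulum stress response element, CCAAT and CCACG with any 9 bases between them, in XBP1.
PGR promoter, chr11:101129814-101130063, minus strand: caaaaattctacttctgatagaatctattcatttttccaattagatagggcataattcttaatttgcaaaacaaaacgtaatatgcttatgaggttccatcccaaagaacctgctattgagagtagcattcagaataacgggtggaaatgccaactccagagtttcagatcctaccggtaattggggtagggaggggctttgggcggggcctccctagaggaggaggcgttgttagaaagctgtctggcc
GATA3 promoter, chr10:8054438-8054687, plus strand: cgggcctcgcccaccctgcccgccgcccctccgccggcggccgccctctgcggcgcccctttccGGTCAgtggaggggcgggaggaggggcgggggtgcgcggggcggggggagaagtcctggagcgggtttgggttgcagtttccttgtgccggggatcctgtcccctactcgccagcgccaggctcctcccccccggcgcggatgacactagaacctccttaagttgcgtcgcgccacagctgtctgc
XBP1 promoter, chr22:28800570-28800819, minus strand: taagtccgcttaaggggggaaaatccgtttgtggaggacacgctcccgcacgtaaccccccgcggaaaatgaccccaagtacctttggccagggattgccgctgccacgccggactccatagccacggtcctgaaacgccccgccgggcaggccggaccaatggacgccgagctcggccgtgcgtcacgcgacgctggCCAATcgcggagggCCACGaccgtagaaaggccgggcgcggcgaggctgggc
Motifs were searched on both strands of these windows and of the same window of 35116 promoters. GGTCA occurred once in GATA3, at -186 from the start, and once in XBP1, at -181 on the other strand, and was not found in PGR, ESR1, NR3C1 or FOXA1, while 32.6% of all promoters hold it. The full element, GGTCA and TGACC with any 3 bases between them, was in none of the 6 windows and is in 0.0399% of all promoters. The stress element of XBP1 starts at -52, and 0.074% of all promoters (26) hold one. The forkhead motif TGTTTAC, the GATA motif AGATAA and the AP-1 motif TGACTCA were in none of the 6 windows, against 2.98%, 9.17% and 4.2% of all promoters. Other spellings of these motifs were not searched, so sites with other letters may be present. There were 3 starts for PGR, 6 for GATA3 and 2 for XBP1, and 1 per gene was searched. The GATA3 window shown lies inside the gene span given above, and that of XBP1 reaches into its span. A match describes letters only, and these elements can lie far from a start site.

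At T0 the lines differed most in PGR and GATA3, which were far lower in BT474R but still detected, while the RNA of ESR1 itself was about equal. In BT474R against BT474 at T0, 8 of the 9 members were differentially expressed genes, or DEGs (quasi-likelihood test of edgeR, adjusted p by Benjamini-Hochberg, threshold 0.05), against 46.9% of all 24641 genes tested. Of these, 4 were lower (PGR, GATA3, GREB1 and FOXA1) and 4 higher (TFF3, XBP1, NR3C1 and TFF1), where 21.7% of all genes were lower and 25.1% higher. A share so large in the background means that the number of members called says little, and the size of the differences is described here.

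PGR was at 854 and 900 CPM in BT474 and at 21.7 and 23.4 CPM in BT474R. The libraries of the lines did not come near each other, and the level in BT474R was 2.58% of that in BT474 (log2 fold change -5.27, SE 0.10, adjusted p = 5.88e-32). GATA3, a determinant of luminal fate, was at 480 and 465 CPM in BT474 and at 40.4 and 38.9 CPM in BT474R, again with all libraries apart (8.39% of BT474, log2 fold change -3.57, SE 0.10, adjusted p = 1.26e-26). GREB1, a cofactor of the estrogen receptor, was at 351 and 359 CPM in BT474 and at 72.9 and 76.4 CPM in BT474R (21% of BT474, log2 fold change -2.25, SE 0.06). ESR1 was at 106 and 102 CPM in BT474 and at 98.5 and 103 CPM in BT474R. These libraries overlapped, and the log2 difference was -0.04 with a 95% interval of -0.20 to 0.12 (adjusted p = 0.714).

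The higher members were led by the trefoil peptide TFF3, a secreted mucosal protein, at 98.7 and 98.4 CPM in BT474 and 322 and 335 CPM in BT474R (log2 fold change 1.74, SE 0.07, adjusted p = 1.69e-22). XBP1 rose from 802 and 764 CPM to 1770 CPM in both BT474R libraries (log2 fold change 1.18, SE 0.04, adjusted p = 9.06e-23). In neither gene did the lines overlap. NR3C1 was at 18.1 and 16.1 CPM in BT474 and at 25.4 and 25 CPM in BT474R, 1.47-fold higher (adjusted p = 3.01e-06). TFF1, the other trefoil gene and a standard estrogen target, was at 66.1 and 65.3 CPM against 86.7 and 82.5 CPM, 1.29-fold higher (adjusted p = 0.000817), and thus opposite in direction to PGR and GREB1. FOXA1 was at 650 and 631 CPM in BT474 and at 602 and 561 CPM in BT474R. Its difference (log2 fold change -0.14, adjusted p = 0.00762) was no longer called without T0 replicate 2 of BT474R (-0.13), and was -0.22 without replicate 1.

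In vehicle at later times PGR, GATA3 and GREB1 were again lower in BT474R, and TFF3, XBP1, NR3C1 and TFF1 higher. BT474R against BT474 called 7 of 9 members at vehicle 1 h, 8 at 12 h and 9 at 24 h, where 50.2%, 49% and 49.3% of all genes were called. PGR differed by -4.52, -4.46 and -4.65 on the log2 scale, GATA3 by -3.19, -3.57 and -3.54, and GREB1 by -1.93, -1.56 and -1.89. TFF3 was higher by 1.91, 1.87 and 1.98, XBP1 by 1.16, 1.09 and 1.07, and NR3C1 by 0.65, 0.45 and 0.48. TFF1 was higher by 0.37, 0.89 and 0.73, so that its gap widened after T0. ESR1 was lower in BT474R vehicle at 12 h (-0.24, adjusted p = 0.013) and 24 h (-0.21, adjusted p = 0.0306), but the first call was lost without BT474 vehicle replicate 1 (-0.22) or BT474R vehicle replicate 2 (-0.18). The second was lost without either BT474 library (-0.23 each) or BT474R replicate 2 (-0.10), and was -0.37 without BT474R replicate 1. FOXA1 differed by 0.00, -0.08 and -0.24, with a call at 24 h; at 12 h it was called only without BT474R vehicle replicate 2 (-0.14) among the left-out libraries.

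**Figure D1:**
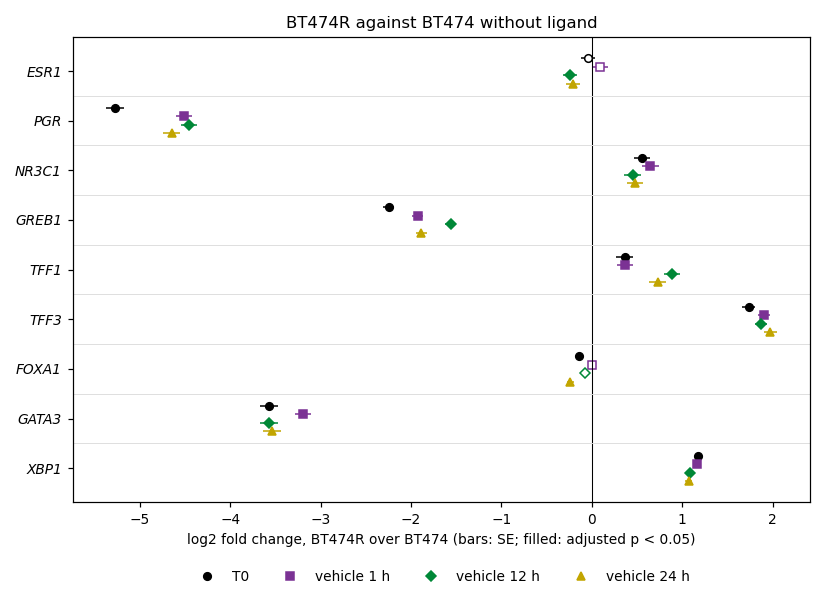
Log2 fold change of BT474R over BT474 (x axis) of the 9 members at T0 and in vehicle at 1, 12 and 24 h, with SE bars, filled where the adjusted p was below 0.05 (2 libraries per group). PGR, GATA3 and GREB1 lie left of 0 and TFF3, XBP1, NR3C1 and TFF1 right of 0 at all 4 times, while ESR1 and FOXA1 stay within 0.24 of 0.

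Levels of the members also moved in vehicle alone. In BT474, vehicle at 24 h against T0 called 6 of 9 members, against 11.4% of all 25146 genes tested. TFF1 fell from 66.1 and 65.3 CPM to 48.6 and 41.7 CPM (log2 fold change -0.55, adjusted p = 5.8e-08). GREB1 fell by 0.34 and PGR by 0.30 on the log2 scale, and FOXA1 by 0.13, while ESR1 was higher by 0.20 and GATA3 by 0.12. The call of ESR1 was lost without T0 replicate 2 (0.19), that of FOXA1 without any of the 4 libraries (-0.14 to -0.10), and that of GATA3 without either T0 library (0.14 and 0.11) or vehicle replicate 2 (0.10). In BT474R the same comparison called 2 of 9, against 13.7% of 24287 genes. These were TFF3, higher by 0.26, and FOXA1, lower by 0.22. The TFF3 call was lost without T0 replicate 1 (0.23), T0 replicate 2 (0.29) or vehicle replicate 2 (0.12), and the FOXA1 call without T0 replicate 1 (-0.16). Each ligand was therefore set against vehicle of its own time point.

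At 12 h and 24 h both ligands lowered ESR1, PGR, GREB1 and GATA3 in both lines, while TFF1 did not fall in any of these comparisons. After 1 h few members were called. EGF called 0 of 9 in either line (2.19% of all genes in BT474 and 0.457% in BT474R). HRG called 2 of 9 in BT474 (2.77%) and 0 of 9 in BT474R (0.169%). Of the 36 member values at 1 h, 7 had an unadjusted p below 0.05 in edgeR, 6 of them in HRG-BT474 and 1 in EGF-BT474. The 2 calls in HRG-BT474 were PGR, at 702 and 795 CPM against 634 and 621 CPM in vehicle (log2 fold change 0.25), and GATA3, at 462 and 425 CPM against 480 and 490 CPM (-0.14). The PGR call was lost without HRG replicate 2 (0.17), and the GATA3 call without HRG replicate 2 (-0.06) or either vehicle library (-0.15 and -0.12).

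At 12 h EGF called 6 of 9 members in BT474, against 16% of all genes, and 7 of 9 in BT474R, against 12%. HRG at 12 h called 8 of 9 in BT474 (25.8% of all genes) and 5 of 9 in BT474R (4.12%). At 24 h the counts were 6 in EGF-BT474 (16.4%), 7 in EGF-BT474R (17.3%), 9 in HRG-BT474 (24.1%) and 5 in HRG-BT474R (2.78%). By direction, 4 members fell and 2 rose in EGF-BT474 at 12 h (6.99% of all genes fell and 9.04% rose), and 5 fell and 1 rose at 24 h (6.65% and 9.71%). In HRG-BT474, 7 fell and 1 rose at 12 h (12.5% and 13.3%), and 7 fell and 2 rose at 24 h (11.6% and 12.5%). In EGF-BT474R, 6 fell and 1 rose at 12 h (5.13% and 6.85%) and again at 24 h (7.37% and 9.95%). In HRG-BT474R, 5 fell and 0 rose at 12 h (1.73% and 2.38%), and 4 fell and 1 rose at 24 h (0.889% and 1.89%). The members thus fell more often than they rose, while more of all genes rose than fell in each of these 8 comparisons. The 9 members were chosen with earlier results of these data known, so this describes them and is no test of a set. All genes also include low counts, down to 1 count in 50% of the libraries, where a change is called less readily. The median log2 fold change of the 9 members was between -0.58 and -0.13 in these 8 comparisons, against -0.03 to 0.01 for all genes. In a fit of only the 4 libraries of the HRG-BT474R comparison at 24 h, no gene of the whole table was called (0), and all 5 member calls were lost. EGF and HRG share the vehicle libraries of a line and time, so their values are given side by side and not as separate support.

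**Figure D2:**
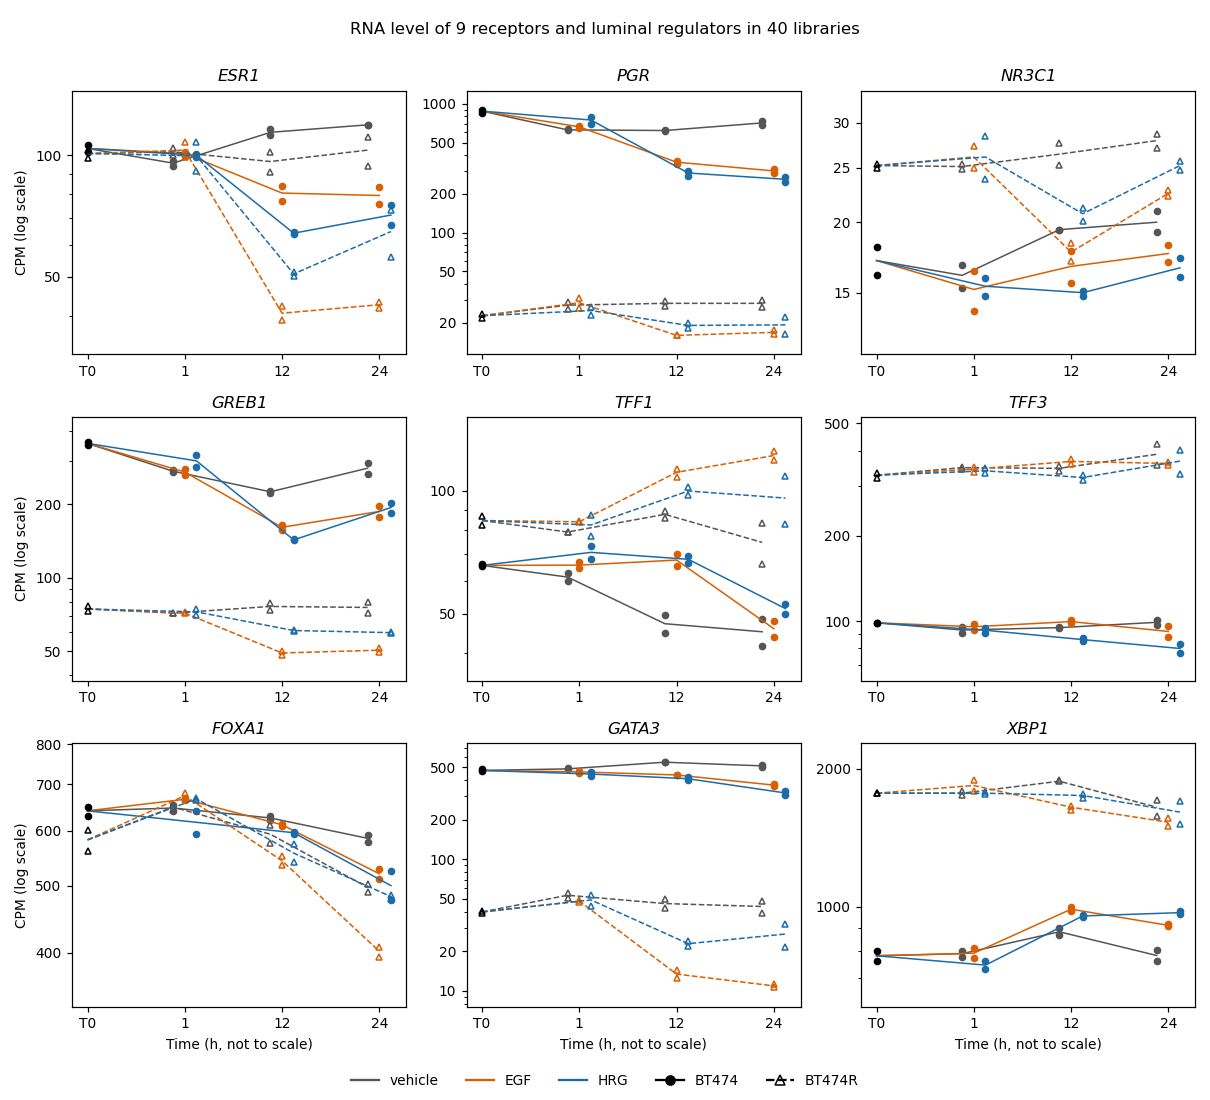
CPM on a log axis (y) of the 9 members in each of the 40 libraries at T0, 1, 12 and 24 h (x, not to scale), with points for libraries and lines through the group means. Filled circles are BT474 and open triangles BT474R, and ESR1, PGR, GREB1 and GATA3 lie below vehicle with both ligands at 12 h and 24 h in both lines.

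Among the receptors, ESR1 fell most with EGF in BT474R. Its vehicle libraries there were at 102 and 91.1 CPM at 12 h and at 111 and 94.2 CPM at 24 h, and EGF libraries were at 39 and 42.2 CPM and at 43.4 and 41.8 CPM. The groups were far apart at both times, with 42% and 41.4% of the vehicle level left (log2 fold change -1.25 and -1.27, SE 0.10, adjusted p = 1.24e-08 and 6.14e-09). HRG-BT474R was at 50.1 and 51.5 CPM at 12 h and at 73.3 and 56.1 CPM at 24 h, below all vehicle libraries (-0.94 and -0.65). In BT474, vehicle was at 116 and 112 CPM at 12 h and at 119 CPM in both libraries at 24 h. EGF-BT474 was at 77.2 and 84.1 CPM and then at 83.3 and 75.8 CPM (-0.51 and -0.59), and HRG-BT474 at 64.5 and 63.8 CPM and then at 75.1 and 67.1 CPM (-0.86 and -0.76, adjusted p = 5.26e-16 and 1.43e-14). The ESR1 calls in these comparisons stood without any single library. In the order of the 10 groups of a line, the 4 ligand groups of 12 h and 24 h were the lowest for ESR1 in each line, and the 2 EGF groups of these times overlapped each other in each line.

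PGR fell in both lines, from very different levels. In BT474, vehicle was at 626 and 613 CPM at 12 h and at 734 and 687 CPM at 24 h. EGF brought PGR to 343 and 362 CPM and to 290 and 313 CPM (log2 fold change -0.83 and -1.24), and HRG to 277 and 303 CPM and to 272 and 246 CPM (-1.12 and -1.47). No ligand library reached a vehicle library, and 36% of the vehicle level was left after HRG at 24 h (SE 0.05, adjusted p = 1.36e-22). In BT474R, vehicle was at 29.5 and 26.9 CPM at 12 h and at 30.2 and 26.2 CPM at 24 h. EGF libraries lay at 15.9 CPM (both) and at 16.2 and 17.5 CPM (-0.83 and -0.75), and HRG libraries at 19.8 and 18.1 CPM and at 22.1 and 16.2 CPM (-0.59 and -0.55). The HRG-BT474R calls of PGR were lost at 12 h without HRG replicate 2 or vehicle replicate 1 (-0.50 each), and at 24 h without HRG replicate 2 (-0.34) or vehicle replicate 1 (-0.45). In BT474R the ligand groups of 12 h and 24 h were the 4 lowest of PGR, but HRG at 24 h overlapped T0, HRG at 12 h and EGF at 24 h.

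NR3C1, which was at a low level in both lines, fell by less. HRG-BT474 at 12 h was at 14.8 and 15.1 CPM against 19.4 CPM in both vehicle libraries (-0.40, adjusted p = 0.000571). EGF-BT474R at 12 h was at 18.4 and 17.1 CPM against 25.3 and 27.6 CPM (-0.58, adjusted p = 8.04e-05). These 2 calls stood without any single library. At 24 h NR3C1 was called in HRG-BT474 (-0.28; lost without HRG replicate 2, -0.23, or vehicle replicate 1, -0.22) and in EGF-BT474R (-0.31; lost without EGF replicate 2, -0.29, or vehicle replicate 2, -0.26). HRG-BT474R at 12 h was lower by 0.37 on the log2 scale, a call that was lost without either HRG library (-0.34 and -0.39) or vehicle replicate 2 (-0.28). It was not called in EGF-BT474 at 12 h (-0.23) or 24 h (-0.19), nor in HRG-BT474R at 24 h (-0.13).

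The estrogen-regulated genes split. GREB1 fell in all 8 comparisons of 12 h and 24 h, by -0.68 to -0.33 on the log2 scale. In BT474 at 12 h, vehicle was at 227 and 223 CPM, EGF at 157 and 164 CPM and HRG at 144 and 143 CPM, with no overlap (-0.50 and -0.68). In BT474R at 12 h, vehicle was at 79 and 73.8 CPM, EGF at 50.3 and 48.3 CPM (-0.63) and HRG at 61 and 60.8 CPM (-0.34). The fall with HRG in BT474R was no longer called at 12 h without vehicle replicate 1 (-0.28), nor at 24 h (-0.33) without vehicle replicate 1 (-0.27).

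TFF1 moved the other way. In BT474 at 12 h it was at 65.5 and 69.9 CPM with EGF and at 66.5 and 69.4 CPM with HRG, against 49.6 and 45 CPM in vehicle (log2 fold change 0.50 and 0.49, adjusted p = 1.62e-07 and 6.53e-08). The ligand libraries lay close to the T0 level of 66.1 and 65.3 CPM, from which vehicle had fallen. By 24 h EGF-BT474 was at 44 and 47.9 CPM against 48.6 and 41.7 CPM in vehicle, with full overlap (0.02). HRG-BT474 at 24 h was at 52.9 and 50 CPM (0.17), a call that was lost without HRG replicate 1 (0.12) or vehicle replicate 2 (0.07), and 0.29 without vehicle replicate 1. In EGF-BT474R TFF1 rose above T0, to 119 and 125 CPM at 24 h against 66.4 and 83.2 CPM in vehicle (0.71, SE 0.10, adjusted p = 1.82e-05). At 12 h it was at 113 and 108 CPM against 85.8 and 89.4 CPM (0.33), a call that was lost without any 1 of the 4 libraries (0.29 to 0.39). HRG-BT474R at 24 h was at 83 and 109 CPM, which overlapped vehicle, and its call (0.38, adjusted p = 0.0442) was lost without HRG replicate 2 (0.17) or vehicle replicate 1 (0.21). At 12 h HRG-BT474R was at 97.6 and 102 CPM and was not called (0.17).

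TFF3 was called lower with HRG in BT474 at both times and was not called in the other 6 comparisons. It was at 87.1 and 84.9 CPM at 12 h against 94.6 and 95.1 CPM in vehicle (-0.17), and at 82.9 and 77.1 CPM at 24 h against 101 and 96.9 CPM (-0.33, adjusted p = 2.43e-06). The 12 h call was lost without HRG replicate 2 (-0.15) or vehicle replicate 2 (-0.16), and EGF-BT474 at 24 h was called without EGF replicate 2 (-0.18). In BT474R its log2 fold changes were between -0.13 and 0.08.

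Among the transcription factors, GATA3 lost most, and the fall was deepest in EGF-BT474R. From 49.7 and 42.4 CPM in vehicle at 12 h and 48.4 and 38.9 CPM at 24 h it came to 12.5 and 14.3 CPM and to 11.3 and 10.6 CPM with EGF. With 29.1% and 24.9% of the vehicle level left, all EGF libraries lay far below all vehicle libraries (log2 fold change -1.78 and -2.00, SE 0.14 and 0.15, adjusted p = 1.32e-08 and 2.53e-09). HRG-BT474R was at 23.8 and 21.8 CPM at 12 h (-1.03, adjusted p = 3.87e-05) and at 32.4 and 21.5 CPM at 24 h (-0.68). The 24 h value was -0.42 without HRG replicate 2 and -0.53 without vehicle replicate 1, where the call was lost, and -1.04 without HRG replicate 1. In BT474, vehicle was at 546 and 544 CPM at 12 h and at 503 and 520 CPM at 24 h. EGF libraries were at 438 and 434 CPM and then at 373 and 357 CPM (-0.34 and -0.49), and HRG libraries at 418 and 397 CPM and then at 307 and 328 CPM (-0.45 and -0.71). No ligand library overlapped vehicle there, and these 4 calls stood without any single library.

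FOXA1, which was within 0.13 of vehicle on the log2 scale at 12 h, was lower at 24 h in 3 of 4 comparisons. EGF-BT474R at 24 h was at 408 and 395 CPM against 490 and 503 CPM in vehicle (-0.31, adjusted p = 5.88e-05). In BT474 at 24 h, EGF was at 511 and 528 CPM and HRG at 476 and 524 CPM against 578 and 592 CPM (-0.18 and -0.25). These groups did not overlap vehicle. The call in HRG-BT474 at 12 h (-0.10) was lost without any 1 of the 4 libraries (-0.10 to -0.09), and HRG-BT474R at 24 h was at 478 and 485 CPM (-0.03, not called).

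XBP1 rose with the ligands in BT474 and not in BT474R. In BT474 at 24 h EGF was at 907 and 916 CPM and HRG at 966 and 978 CPM against 804 and 764 CPM in vehicle, without overlap (0.21 and 0.29, adjusted p = 7.04e-06 and 7.64e-09). At 12 h EGF-BT474 was at 980 and 999 CPM against 898 and 868 CPM (0.15), and HRG-BT474 at 951 and 961 CPM was not called (0.08), except without HRG replicate 1 (0.11). In EGF-BT474R at 12 h XBP1 was at 1630 and 1660 CPM against 1880 and 1890 CPM (-0.19, adjusted p = 0.0143), a call that was lost without any 1 of the 4 libraries (-0.20 to -0.16). The other 3 comparisons in BT474R gave -0.12 to -0.02 and were not called.

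**Figure D3:**
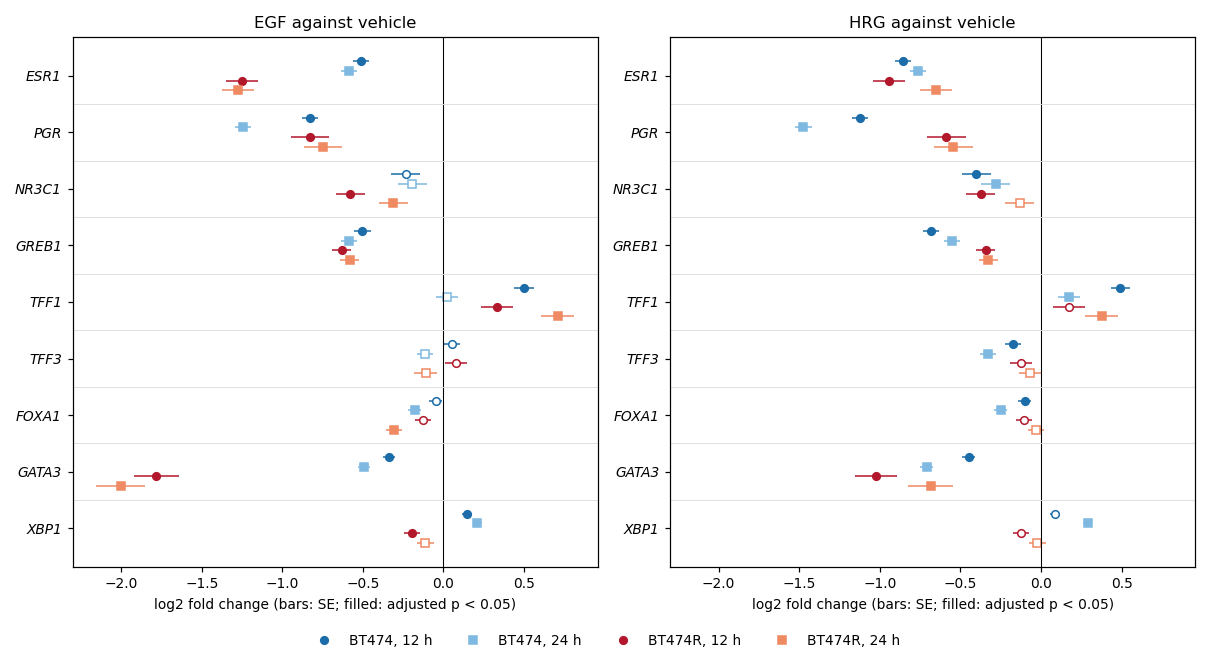
Log2 fold change of each member against vehicle (x axis) with EGF (left) and HRG (right) at 12 h and 24 h in BT474 (blue) and BT474R (red), with SE bars, filled where the adjusted p was below 0.05. GATA3 in EGF-BT474R lies at -1.78 and -2.00, TFF1 lies right of 0, and XBP1 lies right of 0 in BT474 and left of it in BT474R.

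The ligands were also compared with each other. At 1 h HRG against EGF called 0 of 9 members in either line (0.139% of all genes in BT474 and 0.0494% in BT474R). In BT474, HRG left less of the RNA than EGF for 3 members at 12 h (2.17% of all genes called): ESR1 by -0.34, PGR by -0.29 and TFF3 by -0.23. At 24 h 3 members were again lower (0.768%): PGR by -0.23, GATA3 by -0.22 and TFF3 by -0.21. In BT474R the direction was the opposite, with HRG leaving more than EGF. At 12 h 2 members were called (1.42%), GATA3 with 0.76 and GREB1 with 0.29, and at 24 h 4 (5.18%), GATA3 with 1.32, ESR1 with 0.62, FOXA1 with 0.28 and GREB1 with 0.25. GATA3 at 24 h in BT474R was 2.49-fold higher with HRG than with EGF (adjusted p = 6.43e-06). TFF1 at 24 h in BT474R was lower with HRG (-0.33, adjusted p = 0.0515), with all HRG libraries below the EGF libraries. It was called in 6 of the 7 alternative fits (-0.35 to -0.34) but not with only the libraries compared, and its value was -0.17 without HRG replicate 1 and -0.54, a call, without HRG replicate 2. In a fit of only the libraries compared, 0 members were called at 24 h in either line. Several of the smaller calls rested on single libraries. In BT474 the PGR call was lost at 12 h without EGF replicate 2 (-0.25) or HRG replicate 1 (-0.22) and at 24 h without EGF replicate 2 (-0.16) or HRG replicate 2 (-0.15). The TFF3 call was lost at 12 h without EGF replicate 1 (-0.21) or HRG replicate 2 (-0.22) and at 24 h without EGF replicate 2 (-0.14) or HRG replicate 2 (-0.15). ESR1 at 24 h (-0.18) was called only without EGF replicate 2 (-0.23) or HRG replicate 1 (-0.27). In BT474R the GATA3 call at 12 h was lost without EGF or HRG replicate 1 (0.67 and 0.69), the GREB1 call at 12 h without any 1 of the 4 libraries (0.25 to 0.33) and at 24 h without either EGF library (0.24 and 0.27), and ESR1 at 24 h was 0.40 without HRG replicate 1.

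Whether a ligand acted differently in the lines was tested directly, as the log2 effect in BT474R minus that in BT474. Of 54 such tests on members 14 were called. The EGF effect differed for 0 of 9 members at 1 h (0.138% of all genes), 3 at 12 h (1.96%) and 5 at 24 h (4.01%), and the HRG effect for 0 at 1 h (0.544%), 4 at 12 h (4.07%) and 2 at 24 h (3.33%). GATA3 fell more with EGF in BT474R, by a further -1.46 at 12 h and -1.52 at 24 h (SE 0.14 and 0.15, adjusted p = 1.28e-08 and 4.28e-09). With HRG it differed by -0.59 at 12 h, a call that was lost without BT474R HRG replicate 2 (-0.52) or BT474R vehicle replicate 1 (-0.49), and by -0.01 at 24 h. ESR1 fell more with EGF in BT474R, by -0.75 and -0.69 (SE 0.12), whereas its HRG effects differed by -0.10 (95% interval -0.33 to 0.14) and 0.07 (-0.16 to 0.30). XBP1 differed in all 4 tests. The difference was -0.36 and -0.33 for EGF, and -0.22 and -0.35 for HRG. Of these, the HRG value at 12 h was lost without any 1 of the 8 libraries (-0.24 to -0.19), and both 24 h values were not called in a fit of only the libraries compared.

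In the other direction, PGR fell less in BT474R than in BT474 with HRG, by 0.52 at 12 h and 0.89 at 24 h (SE 0.13, adjusted p = 0.0129 and 2.54e-05), and with EGF at 24 h, by 0.49. The 24 h HRG value stood without any single library. The HRG value at 12 h was lost without BT474 HRG replicate 1 (0.47), BT474R HRG replicate 1 (0.46) or BT474R vehicle replicate 2 (0.48). The EGF value was lost without BT474 EGF replicate 1 (0.45), BT474 vehicle replicate 1 (0.42), BT474R EGF replicate 2 (0.43) or BT474R vehicle replicate 2 (0.40). TFF1 differed with EGF at 24 h, by 0.68 (SE 0.13, adjusted p = 0.000434), as it rose in BT474R and stayed at vehicle in BT474. GREB1 fell less with HRG at 12 h in BT474R, by 0.33, a call that was lost without BT474 HRG replicate 2 (0.34), either BT474R HRG library (0.33 each) or BT474R vehicle replicate 2 (0.30). NR3C1, TFF3 and FOXA1 were called in none of these tests in the edgeR fit of all libraries, with values between -0.36 and 0.22. DESeq2, however, called FOXA1 for HRG at 24 h (0.18 in edgeR). The lack of a call there also rested on single libraries. FOXA1 was 0.28 without BT474 HRG replicate 2, and TFF3 was 0.37 without BT474R HRG replicate 1 and 0.35 without BT474R vehicle replicate 2.

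**Figure D4:**
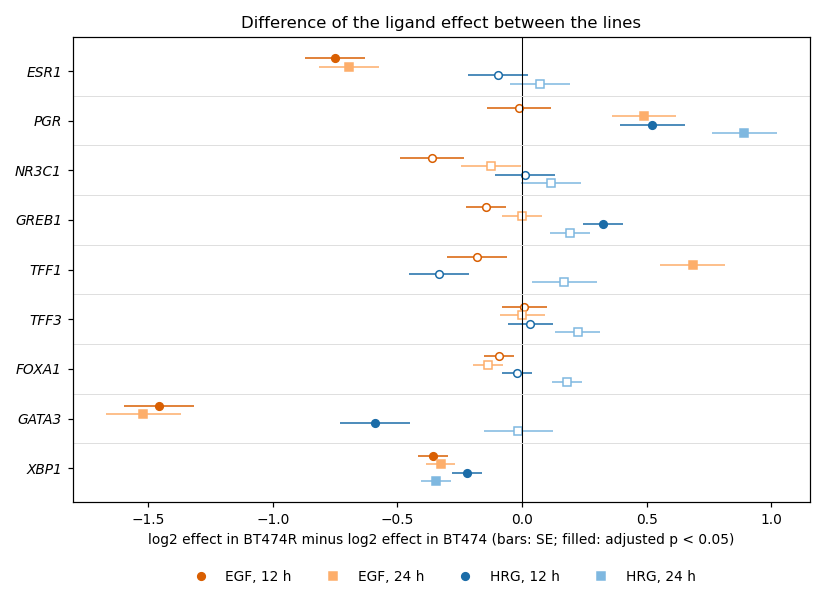
Log2 ligand effect in BT474R minus that in BT474 (x axis) of the 9 members for EGF and HRG at 12 h and 24 h, with SE bars, filled where the adjusted p was below 0.05. GATA3 and ESR1 with EGF and XBP1 with both ligands lie left of 0, and PGR with HRG lies right of 0.

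Some members shared their course over the libraries. After the mean of each line was subtracted, ESR1 and GATA3 correlated with r = 0.93 over the 40 libraries, PGR and GREB1 with r = 0.90, and ESR1 and TFF1 with r = -0.62. XBP1 had r = -0.01 with ESR1 and r = -0.53 with PGR. The libraries share treatments and vehicles, so these values describe the pattern only. Among 13083 genes with at least 1 CPM in each line, the genes most like ESR1 were NDST4 and PDCD4 (r = 0.94 each) and TMEM116 (0.93). PGR was most like CBLN2 (0.95), RFX5 and FTL (0.94 each), and GREB1 most like DSCAM-AS1, a long noncoding RNA of luminal breast cells, and FHOD3 (0.91 each), followed by PGR itself. GATA3 was most like ATP8B2 (0.96), ARHGEF3 (0.95, but 0.52 within BT474) and ECI2 (0.94), and FOXA1 most like PI4KB (0.94), PIK3C2B and DHX29 (0.93 each). TFF1 was most like CRIM1 and SRSF2 (0.87 each) and the keratin gene KRT8 (0.82). XBP1 was most like ETFA (0.90) and PDXDC1 (0.88), NR3C1 like ZKSCAN1 (0.81), HS6ST3 (0.77) and MANBA (0.76), and TFF3 like FAM117A (0.78), OBSL1 (0.76) and AGPAT2 (0.71).

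The other genes of these pathways were read from lists written from general knowledge, with earlier results of these data known. Of 6 other steroid or estrogen-related receptors, 3 or 4 fell and 1 rose in each of the EGF and HRG comparisons of BT474 at 12 h and 24 h, where 6.65% to 12.5% of all genes fell and 9.04% to 13.3% rose. In BT474R 3 fell with EGF at both times (5.13% and 7.37% of all genes), 2 with HRG at 12 h (1.73%) and 1 at 24 h (0.889%), and 1 rose, with EGF at 12 h. In BT474 at 12 h NR3C2, the mineralocorticoid receptor, fell by 1.04 with EGF and by 1.63 with HRG on the log2 scale. ESRRG fell there by 0.85 and 1.13, while ESRRA was higher by 0.18 and 0.34. In EGF-BT474R at 24 h NR3C2 fell by 0.92. At T0 NR3C2 was higher in BT474R (0.45). Of 16 coregulators, 2 rose and 3 fell in EGF-BT474 at 12 h (9.04% and 6.99% of all genes), and 3 and 3 in HRG-BT474 (13.3% and 12.5%). In EGF-BT474R 1 rose and 5 fell (6.85% and 5.13%), and in HRG-BT474R 1 and 0 (2.38% and 1.73%). At 24 h, 1 rose and 1 fell in EGF-BT474 (9.71% and 6.65%), and 5 and 4 in HRG-BT474 (12.5% and 11.6%). The counts were 2 and 6 in EGF-BT474R (9.95% and 7.37%) and 0 and 0 in HRG-BT474R (1.89% and 0.889%). The coactivator gene NCOA2 fell with EGF and HRG at 12 h by 0.24 and 0.32 in BT474. At T0 5 of the 16 were higher and 6 lower in BT474R, against 25.1% and 21.7% of all genes.

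Of 25 further estrogen-responsive genes tested, 18 were lower and 5 higher in BT474R at T0, against 21.7% and 25.1% of all genes (median log2 fold change -0.99, against 0.00 for all genes). CA12, a carbonic anhydrase, was lower by -5.51 and SUSD3 by -4.59, and SERPINA1 and KCNK5 were higher by 1.76 and 1.75. With ligand at 12 h, 8 rose and 5 fell in EGF-BT474 (9.04% and 6.99% of all genes), 9 and 5 in HRG-BT474 (13.3% and 12.5%), 9 and 1 in EGF-BT474R (6.85% and 5.13%), and 4 and 1 in HRG-BT474R (2.38% and 1.73%). At 24 h, 7 rose and 6 fell in EGF-BT474 (9.71% and 6.65%), 7 and 8 in HRG-BT474 (12.5% and 11.6%), 9 and 2 in EGF-BT474R (9.95% and 7.37%), and 2 and 1 in HRG-BT474R (1.89% and 0.889%). AGR2, a protein disulfide isomerase of secretory cells, rose in each of the 4 comparisons of 12 h by 0.56 to 0.87 on the log2 scale. In BT474 at 12 h, CXCL12 fell by 0.75 with EGF and by 1.37 with HRG, and SUSD3 by 0.53 and 1.03. In BT474R at 12 h, IGFBP5 fell by 0.89 with EGF and by 0.60 with HRG.

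Of 21 targets of XBP1, 17 were higher and 1 lower in BT474R at T0, against 25.1% and 21.7% of all genes (median log2 fold change 0.44, against 0.00). SDF2L1 and DNAJC3, chaperone genes of the endoplasmic reticulum, were higher by 1.25 and 1.17, and SEL1L was lower by -0.44. With ligand at 12 h, 6 rose and 1 fell in EGF-BT474 (9.04% and 6.99% of all genes), 7 and 2 in HRG-BT474 (13.3% and 12.5%), 2 and 4 in EGF-BT474R (6.85% and 5.13%), and 0 and 2 in HRG-BT474R (2.38% and 1.73%). At 24 h, 5 rose and 1 fell in EGF-BT474 (9.71% and 6.65%), 8 and 1 in HRG-BT474 (12.5% and 11.6%), 8 and 2 in EGF-BT474R (9.95% and 7.37%), and 1 and 0 in HRG-BT474R (1.89% and 0.889%). At 24 h DNAJB11 was higher by 0.39 in EGF-BT474 and 0.44 in HRG-BT474, and EDEM1 by 0.62 in EGF-BT474R. XBP1 acts mainly through a spliced form of its RNA, which counts per gene do not separate.

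Of the glucocorticoid-responsive genes, 4 of 14 were higher and 5 lower in BT474R at T0 (25.1% and 21.7% of all genes), with SGK1 higher by 1.85 and KLF9 lower by -2.52. In BT474, 2 of 15 rose and 2 fell with EGF at 12 h (9.04% and 6.99% of all genes), and 2 rose and 4 fell with HRG (13.3% and 12.5%). In EGF-BT474R at 24 h 4 of 14 rose and 2 fell (9.95% and 7.37% of all genes). Among them ERRFI1, a feedback inhibitor of the EGF receptor, rose by 1.80. PER1 fell by 0.62 in HRG-BT474 at 12 h. At 1 h 5 of 15 were called with each ligand in BT474, against 2.19% of all genes with EGF and 2.77% with HRG. Of 19 further luminal transcription factors, 7 were higher and 9 lower in BT474R at T0 (25.1% and 21.7% of all genes). At 12 h, 7 rose and 2 fell in EGF-BT474 (9.04% and 6.99% of all genes), and 4 and 5 in EGF-BT474R (6.85% and 5.13%). BHLHE40 rose by 0.99 and 1.25 in these, and TRPS1, a GATA-type repressor, fell by 0.24 and 0.75. SOX9 rose by 1.37 in EGF-BT474R at 24 h, where 5 of the 19 rose and 5 fell (9.95% and 7.37% of all genes).

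Markers of cell identity moved beside the members. Of the 8 luminal epithelial markers 5 rose and 0 fell in EGF-BT474 at 12 h (9.04% and 6.99% of all genes), and 5 and 1 in HRG-BT474 (13.3% and 12.5%). In EGF-BT474R 4 rose and 0 fell (6.85% and 5.13%), and in HRG-BT474R only 1 rose and 0 fell (2.38% and 1.73%). KRT18 was higher by 0.53 in EGF-BT474, 0.85 in HRG-BT474 and 0.81 in EGF-BT474R, and KRT8 by 0.43, 0.77 and 0.54. Of the 7 basal markers 3 rose in EGF-BT474, 4 in HRG-BT474, 3 in EGF-BT474R (6.85% of all genes) and 2 in HRG-BT474R (2.38%) at 12 h, with TP63 higher by 1.18 in EGF-BT474 and KRT17 by 3.50 in HRG-BT474, from a list sum that was at most 27.3 CPM. CD68 was higher by 1.36 in EGF-BT474R at 24 h, and COL1A1 was higher by 1.20 in BT474R at T0. Their part in the changes of the 9 genes was not tested.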

How the data were processed

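RNA of 40 libraries was measured by RNA-seq. Per the labels and the study's methods, the authors trimmed reads with Trim Galore 0.6.6 and aligned them to GRCh38.p13, and the deposited values are raw counts of reads per gene; the annotation release and strand setting are not given in the sources used here. Each column was matched to its sample by the name in the sample's description.

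Counts were tested as deposited with edgeR 4.0.16 (R 4.3.3): TMM scaling, a quasi-likelihood F test for every gene that had 1 count or more in 50% of the libraries of a fit, and Benjamini-Hochberg adjustment over all genes, with a threshold of 0.05. Comparisons within a line used 1 fit of its 20 libraries, and comparisons of lines 1 fit of 40. The SE is the log2 fold change divided by the square root of F. CPM were scaled over all 40 libraries. A floor of 3 counts was 0.179 CPM at most.

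The 9 members, the gene lists and the tests were chosen with earlier results of these data known. Members are named throughout; of each list, the 2 DEGs of at least 1 CPM that changed most in each direction could be named, and, for each member, the 3 genes with the highest r over log2 CPM (prior count 2); some genes that this rule names are not reported here. The method was tested on data simulated for 1 comparison, EGF-BT474 at 12 h. Of genes given a log2 change of 0.5, 1 or 2 in either direction, 79.1%, 95.5% and 97% were called in the right direction. Smaller changes and the other comparisons were not simulated. Alternatives were DESeq2 1.42.0, its size factors, filterByExpr, no filter, only the libraries compared, 1 fit of both lines, a replicate block and leaving out each library.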

Additional observations from a re-analysis of the deposited data

Results flagged for a closer look

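Effects of a ligand that differed between the lines by a test of the difference itself, given as the log2 effect in BT474R minus that in BT474, are collected here; no explanation was tested. With EGF at 12 h these were ESR1 (-0.75), GATA3 (-1.46) and XBP1 (-0.36). With EGF at 24 h they were ESR1 (-0.69), GATA3 (-1.52), XBP1 (-0.33), PGR (0.49) and TFF1 (0.68). With HRG at 12 h they were PGR (0.52), GREB1 (0.33), GATA3 (-0.59) and XBP1 (-0.22), and at 24 h PGR (0.89) and XBP1 (-0.35). GATA3 and PGR start from far lower levels in BT474R, so these are differences of relative change.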

How the results depend on the processing

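No member reversed its direction under any alternative where it was called. Of the 121 member calls over 30 comparisons, 95 were kept under every alternative fit, 85 without any 1 library and 78 under both. DESeq2 lost 3 calls and gained 4, DESeq2's size factors in edgeR lost 3 and gained 3, filterByExpr lost 3 and gained 2, and no filter lost 0 and gained 14. A fit of only the libraries compared lost 17 and gained 10, and 1 fit of both lines lost 13 of 75 and gained 4. Leaving out 1 library lost 92 of 540 and gained 14; in fits of both lines the dispersion trend was then held at that of all libraries.

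The number of members called moved as follows. For HRG against vehicle in BT474 at 1 h it was 2, and 1 with DESeq2's size factors or only the libraries compared, 4 with no filter, 0 with 1 fit of both lines and 0 to 3 without 1 library. For HRG against vehicle in BT474R it was 5 at 12 h, 3 to 4 without 1 library, and 5 at 24 h, 0 with only the libraries compared and 1 to 5 without 1 library. For HRG against EGF in BT474 it was 0 at 1 h (2 with no filter, 0 to 1 without 1 library), 3 at 12 h (1 with 1 fit of both lines, 5 with only the libraries compared) and 3 at 24 h (0 with either, 1 to 4 without 1 library). In BT474R it was 2 at 12 h (4 with no filter, 0 to 1 without 1 library) and 4 at 24 h (0 with only the libraries compared). For vehicle at 24 h against T0 it was 6 in BT474 (3 with 1 fit of both lines, 3 to 5 without 1 library) and 2 in BT474R (0 to 2). For the difference of the HRG effect between the lines it was 0 at 1 h (1 with no filter or only the libraries compared), 4 at 12 h (1 to 3 without 1 library) and 2 at 24 h (1 with only the libraries compared, 2 to 4 without 1 library). The cause was not tested.

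Over all genes, with only the libraries compared, calls went from 550 to 240 in EGF-BT474 at 1 h, from 111 to 279 and 2910 to 5176 in EGF-BT474R at 1 h and 12 h, and from 41 to 121, 1000 to 566 and 675 to 0 in HRG-BT474R. For HRG against EGF they went from 35 to 0, 545 to 1242 and 193 to 12 in BT474 and from 1258 to 0 in BT474R at 24 h. For the differences between the lines they went from 34 to 178, 484 to 1282 and 989 to 553 with EGF, and from 134 to 213, 1003 to 2066 and 821 to 85 with HRG. With no filter they were 226 in EGF-BT474R at 1 h, 151, 1577 and 1147 in HRG-BT474R, 96 and 402 for HRG against EGF in BT474 at 1 h and 24 h, 48 (from 12) and 628 (from 345) in BT474R at 1 h and 12 h, and 130 and 225 for the 1 h differences. With 1 fit of both lines they were 68, 1606 and 1137 in HRG-BT474R, 10, 259 and 55 for HRG against EGF in BT474, and 22 in BT474R at 1 h. Leaving out 1 library moved the totals of several comparisons widely, among them HRG against EGF in BT474 at 12 h and 24 h. Only the totals of HRG-BT474R at 24 h are given here. HRG-BT474R at 24 h had 107 without vehicle replicate 1, 1236 without vehicle replicate 2, 2307 without HRG replicate 1 and 500 without HRG replicate 2.

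Same replicate numbers did not pair the samples in most comparisons: of 24 comparisons, 5 had a correlation of the deviations over 0.1 (range -0.09 to 0.38). All 5 were among the 6 ligand comparisons at 24 h (0.13, 0.26 and 0.18 in BT474, and 0.38 and 0.24 in BT474R; the other was 0.02), and no other comparison exceeded 0.08. With the replicate number as a block no member call was lost and 3 were gained: XBP1 in HRG-BT474 at 12 h (0.08), GREB1 for HRG against EGF in BT474 at 12 h (-0.18) and TFF1 for HRG against EGF in BT474R at 24 h (-0.34), which was also called in 5 other alternative fits. Every member had at least 258 counts in each library (GATA3 in BT474R).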
